A study of Mus musculus with 4 samples.

Results

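The 37 genes described here encode enzymes and regulators of cholesterol and fatty acid metabolism, in macrophages sorted from mouse gastrointestinal stromal tumours (GIST) with or without imatinib treatment of the mice. They were taken by name from a list of 14 genes of sterol synthesis, 4 of its control by SREBP factors and of sterol transport, 7 of fatty acid synthesis and desaturation, 9 of fatty acid oxidation and 3 of lipid droplets and fatty acid binding. Each gene was read from its brightest probe set with a single gene symbol. Of the 12393 genes so measured on the array, 36 were members, and Insig1, which encodes the protein that holds SREBP factors in the endoplasmic reticulum, had no such probe set. The signal filter, a level of 79.8 that the 40th percentile of the array's probe sets set, was passed by 32 members, and 4 lay below it.

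Cells make cholesterol from acetyl-CoA through mevalonate, isoprenoid diphosphates, squalene and lanosterol. When sterols run low, SREBP transcription factors leave the endoplasmic reticulum and switch on genes of this pathway and of fatty acid synthesis, often together with the factor NF-Y, which binds CCAAT boxes. Fatty acids are burned in mitochondria, which they enter as carnitine esters. Macrophages take up the lipid of the cells they engulf, and alternatively activated macrophages are known for fatty acid oxidation.

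Tumour-associated macrophages were isolated by flow cytometry from collagenase-digested tumours. The mice had drunk water with imatinib at 600 mg/L, a tyrosine kinase inhibitor used against GIST because it blocks Kit, or had received vehicle, in both cases for 2 weeks. The mice of both groups carried GIST; the labels give neither their strain or alleles nor their age. Cells of the 8 mice in each group were pooled before 200 ng of RNA was labelled for each Affymetrix array, which gave 2 imatinib and 2 vehicle arrays. The titles call the arrays biological replicates while the design text describes duplicates of a pool, so the p-values reflect array-to-array spread that may be technical only. With so few arrays the precision is limited.

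The sorted cells carried macrophage transcripts in both groups, with higher signal of epithelial and most fibroblast markers in the vehicle pool. Median signals without control probe sets were 122 and 133 on the imatinib arrays, against 152 and 140.4 on the vehicle arrays, and the 3' to 5' signal ratio of Gapdh, a measure of RNA integrity, was 2.34 and 2.09 against 2.91 and 2.76. Of 14 macrophage markers tested, 11 were higher with imatinib and 0 lower (0 lower at an unadjusted p under 0.05, limma), and their summed signal was 184166 to 192848 on the imatinib arrays against 153603 to 154458 on the vehicle arrays. All 13 epithelial markers tested were lower, with a summed signal over the 14 listed of 6901 on each imatinib array, against 33363 and 33735 on the vehicle arrays, and Epcam, Krt8 and Cdh1 were well above the filter on all arrays. Fibroblast markers were lower for 7 of 10 tested (summed signal 3992 and 4392 with imatinib, 7943 and 8627 with vehicle). Of 4 markers of GIST and interstitial Cajal cells tested, 2 were lower and 2 were not called. Smooth muscle had 1 of 3 lower, and of 6 endothelial markers 0 passed. In such bulk RNA, fewer cells of a type and less RNA per cell cannot be told apart. The part of these shifts in the results below was not tested.

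Lipid metabolism genes were in part lower with imatinib, and none passed the test as higher. Of the 32 members tested, 6 were lower (18.8%), where 8.73% of all 8145 genes tested were lower, and 0 were higher, where 6.8% of all genes were (limma, Benjamini-Hochberg adjusted p below 0.05). At an unadjusted p under 0.05, 12 members were lower and 1 was higher. The 6 were the carnitine carrier gene Slc25a20, the sterol synthesis genes Fdft1, Idi1 and Hmgcs1, Hadhb of fatty acid oxidation and the regulator gene Srebf1. The median log2 difference over the members tested was -0.23, against -0.02 over all genes tested. Both imatinib arrays lay below both vehicle arrays for 17 members, where this held for 29.9% of all genes tested, and above them for 3, where it held for 26.1%. When the array medians were set equal instead, which raised the median difference of all tested genes to 0.16, 3 members were lower (Slc25a20, Fdft1 and Idi1) and 3 higher (Acly, Fabp5 and Fads1). When the mean of the macrophage markers was set equal, which moved the median of all tested genes to -0.49, 26 members were lower and 0 higher. Over all genes 554 were higher and 711 lower on the deposited scale, 1234 and 528 with equal medians, and 108 and 5311 with equal macrophage markers. Without probe sets that may hit several transcripts, 3 of 27 members tested were lower.

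**Figure D1:**
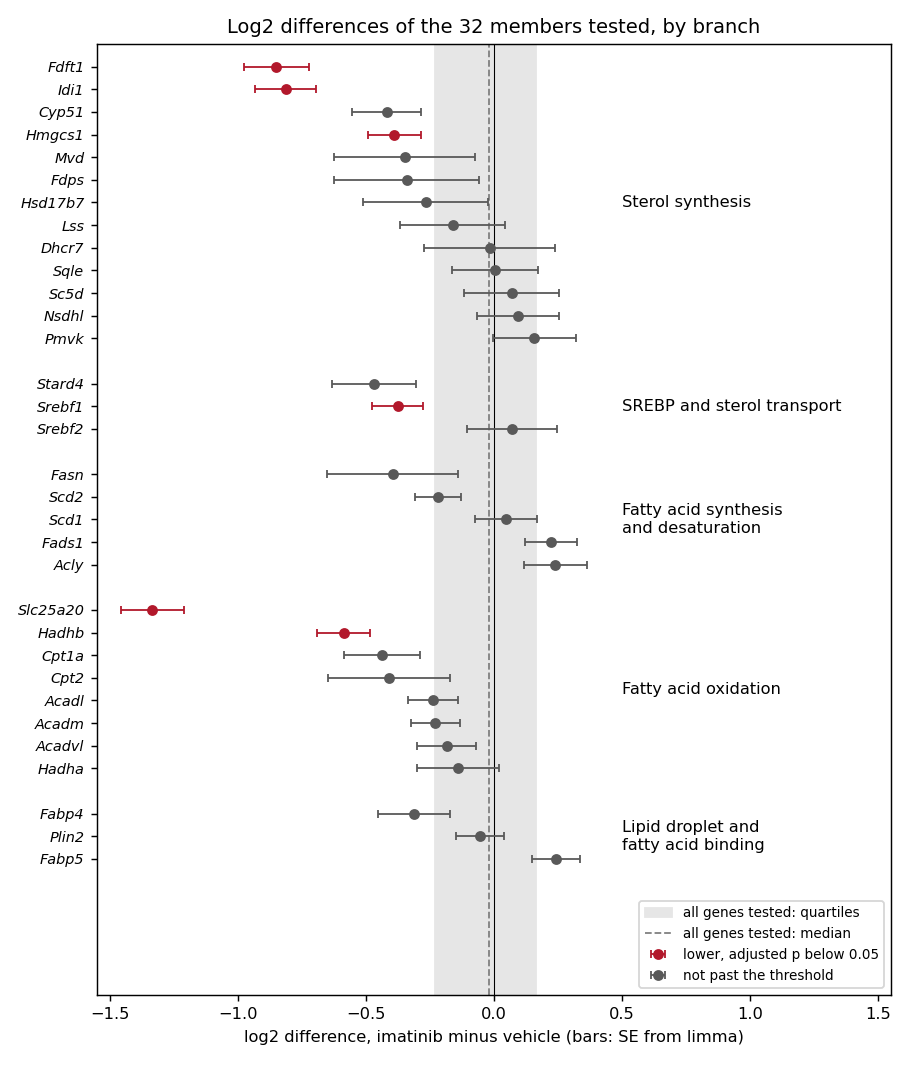
Log2 difference, imatinib minus vehicle, of each member tested (points; bars are SE from limma, 2 arrays per group), by branch. Red points are the 6 genes past an adjusted p of 0.05, all on the negative side; the grey band spans the quartiles (-0.23 to 0.16) and the dashed line the median (-0.02) of all 8145 genes tested.

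In sterol synthesis, 3 genes of early and middle steps were lower. No late gene passed the test at the chosen filter and scale. Cyp51, a late gene, had a log2 difference of -0.42, beside -0.39 for Hmgcs1, which passed. The difference between early and late steps was not tested. Of 13 genes tested, 3 were lower, 0 were higher (0 at an unadjusted p under 0.05) and 10 were not called, with a median log2 difference of -0.27 and a range from -0.85 to 0.16. Over all genes tested, 8.73% passed as lower and 6.8% as higher. The median was -0.02 with a filter at the 60th percentile, which leaves out the dimmer genes. Hmgcs1 encodes the synthase that makes HMG-CoA at the entry of the pathway. Its signal was 1317 and 1174 on the imatinib arrays, against 1553 and 1730.2 on the vehicle arrays, a log2 difference of -0.39 ± 0.10 (SE, limma adjusted p = 0.026). The groups did not overlap, but the call was lost without imatinib replicate 2 (-0.31, limma adjusted p = 0.14), without vehicle replicate 2 (-0.31, adjusted p = 0.13), with equal array medians (-0.20, adjusted p = 0.40) and without a signal filter or a mean-variance trend. Of its other probe sets, 1 passed (-0.66, limma adjusted p = 0.00097 over all probe sets) and 2 did not (-0.40 and -0.02).

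Idi1, the isomerase of isopentenyl diphosphate, had signals of 429 and 448 with imatinib, against 823 and 766 with vehicle. Fdft1, the squalene synthase that commits isoprenoids to sterols, had 351 and 356 with imatinib, against 687 and 639 with vehicle. Neither gene's groups overlapped, and within each group the arrays lay close together. The log2 differences were -0.81 ± 0.12 for Idi1 (SE, limma adjusted p = 0.00080) and -0.85 ± 0.13 for Fdft1 (adjusted p = 0.00089). Both calls depended on the probe set. A dimmer probe set of Idi1 had a log2 difference of -0.34 and one of Fdft1 had -0.53, and neither passed the test when probe sets that may hit several transcripts were left out (limma adjusted p = 0.11 and 0.24). The Fdft1 probe sets below the filter had -0.81 and 0.51. With the mean of its probe sets Fdft1 was at -0.42, its smallest difference. Its highest adjusted p over the alternatives was 0.36 (limma).

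The late sterol genes, from squalene on, did not pass. Cyp51, which removes a methyl group from lanosterol, came closest, with 365 and 427 on the imatinib arrays and 551 and 527 on the vehicle arrays (log2 difference -0.42 ± 0.14, limma adjusted p = 0.062). Its arrays were separated. A second probe set had a log2 difference of -0.48, and the remaining one, below the filter, had 0.37. The difference was -0.18 with the mean of the probe sets (limma adjusted p = 0.59), and Cyp51 passed with the 60th percentile filter (adjusted p = 0.049) and with equal macrophage markers (-0.89, adjusted p = 0.00067). Sqle, the squalene epoxidase, had 295 and 239 with imatinib and 269.8 and 260.1 with vehicle, so its groups overlapped, as they did for Nsdhl and Hsd17b7, which act on the sterol ring, Sc5d, a sterol desaturase, and Dhcr7, the reductase of the last step. The 5 log2 differences ran from -0.27 for Hsd17b7 to 0.09 for Nsdhl. Among these 5 genes Dhcr7 had the widest spread within a group, with 549 and 259 on the imatinib arrays. Lss, the lanosterol synthase, had a log2 difference of -0.16.

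The remaining genes between HMG-CoA and squalene also missed the threshold. Mvd, which decarboxylates mevalonate diphosphate, had a log2 difference of -0.35 ± 0.27, and the farnesyl diphosphate synthase gene Fdps had -0.34 ± 0.28 with overlapping arrays. Pmvk, the phosphomevalonate kinase gene, had 276 and 257 with imatinib and 233 and 238 with vehicle (log2 difference 0.16 ± 0.16). It was the sterol gene with both imatinib arrays above both vehicle arrays, a sign that turned with equal macrophage markers (-0.31). Mvk, the mevalonate kinase gene, lay below the filter with signals of 40.2 and 60.9 with imatinib and 103 and 63.5 with vehicle. Its arrays did not overlap.

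The promoters of the sterol genes are shown because the genes share a regulator, and those that fell can be set beside one that did not. RefSeq windows of 250 bases before to 50 after the gene start (GRCm38.p6) were given for 28 of the 37 members, 11 of them sterol synthesis genes. Fdft1, Sqle, Fdps, Stard4, Scd1, Scd2, Fads1, Fabp4 and Fabp5 had none. Both strands were searched for the sterol regulatory element TCACNCCAC, the CCAAT box and the direct repeat that PPAR and RXR bind, each on its own, and capitals mark the matches. The repeat was taken as 2 copies of AGGNCA with any 1 base between. Hmgcs1 (chr13:119690101-119690400, plus strand), Idi1 (chr13:8885356-8885655, plus strand) and Nsdhl (chrX:72918271-72918570, plus strand) read as follows.
Hmgcs1: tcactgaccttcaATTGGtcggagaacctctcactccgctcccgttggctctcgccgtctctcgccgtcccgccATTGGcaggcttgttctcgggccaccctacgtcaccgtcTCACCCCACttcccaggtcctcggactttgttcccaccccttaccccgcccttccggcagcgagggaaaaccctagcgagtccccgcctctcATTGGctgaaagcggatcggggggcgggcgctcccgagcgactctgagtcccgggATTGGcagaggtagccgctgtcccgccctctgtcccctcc
Idi1: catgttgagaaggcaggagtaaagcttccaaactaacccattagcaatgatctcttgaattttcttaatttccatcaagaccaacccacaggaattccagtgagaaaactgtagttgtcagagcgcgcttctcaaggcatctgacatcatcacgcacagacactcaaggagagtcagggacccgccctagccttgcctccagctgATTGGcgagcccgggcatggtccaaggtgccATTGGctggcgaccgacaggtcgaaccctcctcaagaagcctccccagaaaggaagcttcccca
Nsdhl: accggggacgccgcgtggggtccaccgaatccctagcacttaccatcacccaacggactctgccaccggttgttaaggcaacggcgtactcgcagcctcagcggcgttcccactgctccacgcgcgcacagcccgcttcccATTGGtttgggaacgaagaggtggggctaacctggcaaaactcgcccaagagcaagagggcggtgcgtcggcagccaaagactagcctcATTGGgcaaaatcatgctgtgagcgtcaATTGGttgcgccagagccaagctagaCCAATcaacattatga
The sterol regulatory element began 137 bases upstream of the start of Hmgcs1. Of the 28 members with a window, 1 held it, against 1.44% of 27025 genes. A CCAAT box, in either orientation, was in a window of all 11 sterol synthesis genes with a window, against 41.1% of 27025 genes in the table. The 11 included genes with lower signal and genes such as Nsdhl that did not pass the test. Since all 11 held the box, its presence could not tell them apart.

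Among the regulators, Srebf1 was lower and Srebf2 was not called. Srebf1 encodes the SREBP factor best known for fatty acid synthesis genes. Its signal was 1061 and 1009 on the imatinib arrays, against 1308 and 1399 on the vehicle arrays (log2 difference -0.38 ± 0.10, SE, limma adjusted p = 0.025). The arrays were separated by a small margin. The call was lost without imatinib replicate 1 (-0.41, limma adjusted p = 0.065), imatinib replicate 2 (-0.34, adjusted p = 0.11) or vehicle replicate 2 (-0.33, adjusted p = 0.11), with equal array medians (-0.18, adjusted p = 0.44) and without the mean-variance trend (adjusted p = 0.12). Srebf2, the factor of sterol synthesis genes, had 297.7 and 253 with imatinib and 230.3 and 293 with vehicle, which overlapped (0.07 ± 0.18). A dimmer Srebf2 probe set had the other sign and a wide spread. Its signals were 26.5 and 165 with imatinib and 112 and 119 with vehicle (-0.46 ± 0.45). Stard4, a carrier of cholesterol between membranes, had 207 and 202 with imatinib, against 286 and 304 with vehicle. Its groups did not overlap, but the log2 difference of -0.47 ± 0.16 did not pass (limma adjusted p = 0.083).

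**Figure D2:**
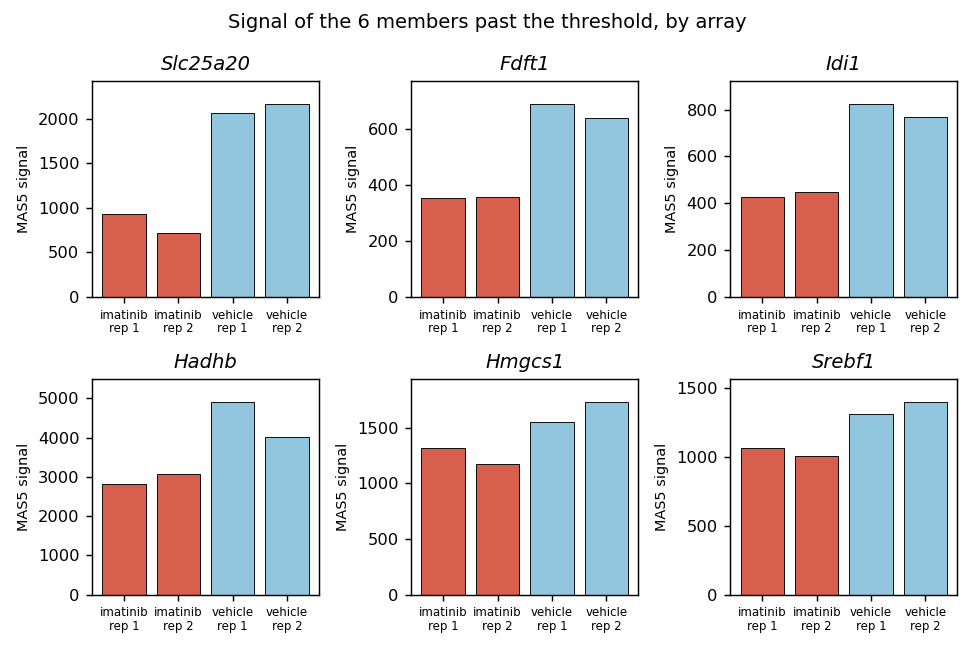
MAS5 signal (linear, bars from 0) of the 6 members past the threshold on each imatinib array (red) and each vehicle array (blue). The imatinib bars are lower than both vehicle bars in every panel. As a ratio of imatinib to vehicle, on the log2(signal + 32) scale, Slc25a20 is lowest of the 6 (0.397) and Hmgcs1 (0.763) and Srebf1 (0.770) are highest.

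Genes of fatty acid synthesis and desaturation did not move as one. Of 5 tested, 0 passed in either direction (limma; 1 lower and 0 higher at an unadjusted p under 0.05), with a median log2 difference of 0.05 and a range from -0.40 to 0.24. Acly, which makes cytosolic acetyl-CoA from citrate, had 2572 and 2424 with imatinib and 1822 and 2441 with vehicle, where 1 vehicle array was as bright as the imatinib arrays (0.24 ± 0.12). The Acly difference was 0.03 without vehicle replicate 1 (limma adjusted p = 0.91) and 0.45 without vehicle replicate 2 (adjusted p = 0.019). Fads1, a desaturase of polyunsaturated fatty acids, had 1024 and 1051 with imatinib, against 868 and 902 with vehicle (0.22 ± 0.10, limma adjusted p = 0.18), and its groups were separated. With equal macrophage markers the differences turned to -0.23 for Acly and -0.25 for Fads1.

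The stearoyl-CoA desaturases Scd1 and Scd2, which make monounsaturated fatty acids, differed in sign without passing, though with equal macrophage markers Scd1 was at -0.42. Scd1 had 753 and 873 with imatinib and 729.7 and 841 with vehicle (log2 difference 0.05 ± 0.12), and Scd2 had 1562 and 1526 with imatinib and 1833 and 1774 with vehicle (-0.22 ± 0.09, limma adjusted p = 0.13). The Scd2 arrays were separated and those of Scd1 overlapped. Fasn, the fatty acid synthase gene, had 93.3 and 144 with imatinib and 135 and 196 with vehicle (-0.40 ± 0.25). Its groups overlapped. Acaca, whose enzyme makes malonyl-CoA, and Fads2, another desaturase gene, lay below the filter, with signals of 31.1 and 32.1 against 36.5 and 56.2 for Acaca and 83.7 and 94.9 against 98.6 and 48.6 for Fads2 (imatinib against vehicle). A second Fads2 probe set, also below the filter, had 38.7 and 34.8 with imatinib, against 114 and 75.4 with vehicle.

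Fatty acid oxidation was the branch with the largest single decrease, and all 8 of its genes tested had a negative log2 difference, though with equal array medians Acadvl (0.01) and Hadha (0.04) did not. Of these, 2 were lower, 0 were higher and 6 were not called (limma; 5 lower and 0 higher at an unadjusted p under 0.05). The median was -0.32 and the range -1.33 to -0.14. The imatinib arrays lay below both vehicle arrays for 7 of the 8, all but Cpt2. This held for 29.9% of all genes tested, of which 8.73% passed as lower and 6.8% as higher. The branch median was -0.18 without imatinib replicate 1 and -0.47 without imatinib replicate 2, and -0.14 with equal array medians, where 1 gene, Slc25a20, was lower.

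Slc25a20 encodes the carrier that takes acylcarnitines across the inner mitochondrial membrane. Its signal was 933 and 715 on the imatinib arrays, against 2060 and 2162 on the vehicle arrays. The 2 groups were far apart, and the gene was the 1 member past the filter that differed at least 2-fold, at 0.397 times the vehicle level on the log2(signal + 32) scale (log2 difference -1.33 ± 0.12, SE, limma adjusted p = 2.9e-05). A dimmer probe set fell less, with 262 and 264 with imatinib and 426 and 401 with vehicle (-0.59 ± 0.15, limma adjusted p = 0.022 over all probe sets). The gene remained lower under all 17 alternatives tried.

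The trifunctional protein, which carries out later steps of the oxidation of long-chain fatty acids, is built from the products of Hadha and Hadhb. Hadhb had 2814 and 3075 with imatinib, against 4908 and 4004 with vehicle (log2 difference -0.59 ± 0.10, SE, limma adjusted p = 0.0028). Its second probe set also passed (-0.37 ± 0.10, limma adjusted p = 0.038 over all probe sets), while with equal array medians (-0.39, adjusted p = 0.062) and without the mean-variance trend Hadhb missed the threshold. Hadha had 253 and 242 with imatinib and 275 and 277 with vehicle (-0.14 ± 0.16), separated but not called. The starts of both genes lay 273 bases apart on opposite strands of chromosome 5, so their promoter windows share 228 bases. The difference between the 2 genes was not tested.

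The windows of Slc25a20 (chr9:108661886-108662185, plus strand) and Hadhb (chr5:30155003-30155302, plus strand), the oxidation genes that fell, are shown in the same way. No letter is in capitals since neither window held any of the 3 motifs.
Slc25a20: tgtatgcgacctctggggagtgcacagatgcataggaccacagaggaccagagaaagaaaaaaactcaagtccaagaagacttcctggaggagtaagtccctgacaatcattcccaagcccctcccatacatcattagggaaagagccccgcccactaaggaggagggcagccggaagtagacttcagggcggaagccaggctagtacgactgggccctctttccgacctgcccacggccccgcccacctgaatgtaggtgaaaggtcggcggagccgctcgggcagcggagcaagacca
Hadhb: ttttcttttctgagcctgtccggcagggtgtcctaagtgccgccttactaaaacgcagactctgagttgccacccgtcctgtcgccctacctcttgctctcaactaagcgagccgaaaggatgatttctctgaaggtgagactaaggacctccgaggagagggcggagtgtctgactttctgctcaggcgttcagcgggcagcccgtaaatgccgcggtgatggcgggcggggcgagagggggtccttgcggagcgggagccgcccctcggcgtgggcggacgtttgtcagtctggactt
A CCAAT box was in the windows of 2 of the 9 oxidation genes (Cpt1a and Pdk4), and the direct repeat was in none of the 28 members' windows, where 0.381% of all windows held it.

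The carnitine transferases and the dehydrogenases of the first oxidation step did not pass. Cpt1a, which loads fatty acids onto carnitine and sets the pace of their entry into mitochondria, had 719 and 1037 with imatinib, against 1135 and 1229 with vehicle (-0.44 ± 0.15, limma adjusted p = 0.077). Its arrays were separated. The value rested on single arrays, at -0.18 without imatinib replicate 1 (limma adjusted p = 0.49) and -0.69 without imatinib replicate 2 (adjusted p = 0.0038), and the gene also passed with the mean of its probe sets (-0.78, adjusted p = 0.0075). The brightest probe set of Cpt1a and a dimmer one may both hit other transcripts. The dimmer one had 216 and 243 with imatinib and 1046 and 458 with vehicle (-1.48 ± 0.28, limma adjusted p = 0.0053 over all probe sets). The remaining probe set, not of that kind, had a log2 difference of -0.43 ± 0.14 (limma adjusted p = 0.071). Cpt2, which unloads the fatty acids inside mitochondria, had 215 and 333 with imatinib and 471 and 285 with vehicle, which overlapped. The acyl-CoA dehydrogenases were separated in small steps. Acadm, for medium chains, had 1786 and 1947 with imatinib, against 2083 and 2304 with vehicle (-0.23 ± 0.09). Acadl, for long chains, had 1328 and 1187 against 1467 and 1508 (imatinib against vehicle, -0.24 ± 0.10), and Acadvl, for very long chains, had 590 and 596 against 660 and 697 (-0.18 ± 0.12). Pdk4, a kinase that restrains the burning of glucose, lay below the filter with signals of 34.6 and 14.5 with imatinib and 91.9 and 94.9 with vehicle. Without the filter its log2 difference was -1.17 (limma adjusted p = 0.059).

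Lipid droplet and fatty acid binding genes did not pass (0 of 3 in either direction, limma; 1 higher and 0 lower at an unadjusted p under 0.05). Plin2, which coats lipid droplets, had 2090.1 and 1845 with imatinib and 2061 and 2017 with vehicle (-0.05 ± 0.09), and its groups overlapped. The fatty acid binding proteins differed in sign. Fabp5 had 1518 and 1527 with imatinib, against 1248 and 1318 with vehicle (0.24 ± 0.09, limma adjusted p = 0.11). Fabp4 had 359.9 and 383 with imatinib, against 431 and 509 with vehicle (-0.31 ± 0.14, limma adjusted p = 0.18). Both were separated, in opposite directions on the deposited scale, while with equal macrophage markers Fabp5 turned to -0.23. Dimmer probe sets had -0.57 ± 0.18 for Fabp4 (limma adjusted p = 0.058 over all probe sets) and 0.38 ± 0.23 for Fabp5 (adjusted p = 0.34). Fabp4 is also made by adipocytes and endothelium. All 6 adipocyte markers measured lay below the filter by their mean over the arrays. Adipoq had signals of at most 8.13, and Retn had 19.7 and 41.5 with imatinib and 129 and 20.1 with vehicle. Pck1 had 16.3 and 19.1 with imatinib, against 65.2 and 57.8 with vehicle, while Adipoq, Retn, Lep, Cidec and Cidea overlapped. Of 6 endothelial markers tested 0 passed (limma, 0 at an unadjusted p under 0.05). Their list had a summed signal of 1164 and 1231 with imatinib and 1359 and 1175 with vehicle. The part of adipocytes and endothelium in the Fabp4 difference was not tested.

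**Figure D3:**
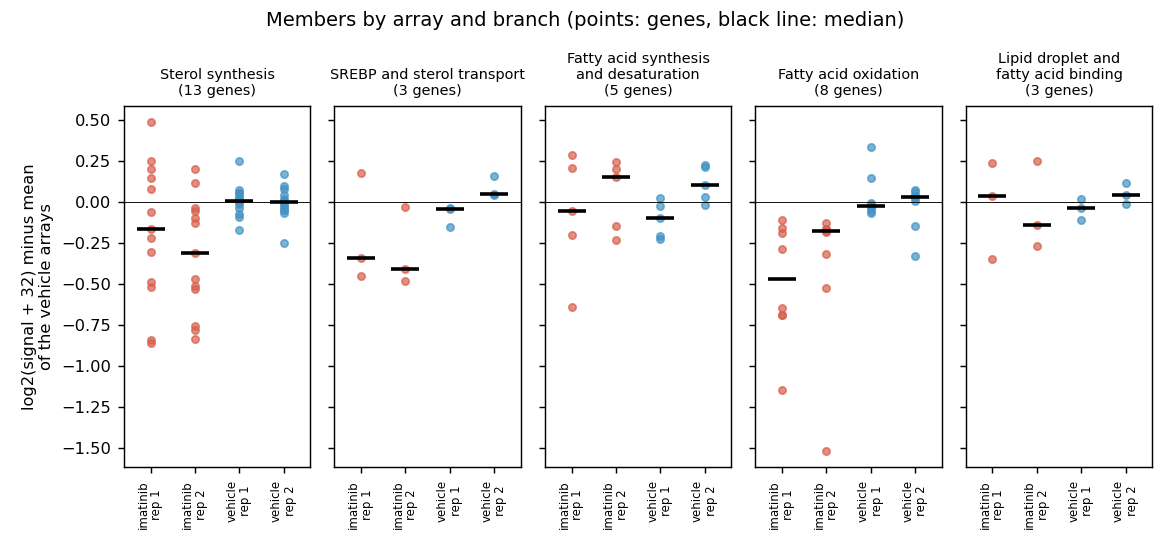
Level of each member tested (points) on each array, as log2(signal + 32) minus the gene's mean on the vehicle arrays, by branch, with imatinib arrays in red and vehicle arrays in blue. Black lines are medians over the genes, which for fatty acid oxidation were -0.47 and -0.18 on the imatinib arrays and for fatty acid synthesis -0.06 and 0.15.

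The branch medians of the log2 difference were -0.38 for SREBP and sterol transport, -0.32 for fatty acid oxidation, -0.27 for sterol synthesis, -0.05 for lipid droplet and fatty acid binding and 0.05 for fatty acid synthesis, beside -0.02 for all genes tested. These medians rest on 3 to 13 genes, and the difference between branches was not tested. The first 3 had no settled order, since without probe sets that may hit several transcripts SREBP and sterol transport was at -0.20 over 2 genes, oxidation at -0.30 and sterol synthesis at -0.30. On single arrays, the median sterol gene lay at -0.16 and -0.31 on the imatinib arrays relative to the vehicle mean, the median oxidation gene at -0.47 and -0.18, and the median gene of SREBP and sterol transport at -0.34 and -0.41. The imatinib arrays therefore differed more from each other in the oxidation branch than the sterol and oxidation medians did. On the same arrays the median epithelial marker differed by -2.18, the median fibroblast marker by -0.996 and the median macrophage marker by 0.41. Of 8 listed absorptive enterocyte genes that handle dietary lipid, 2 were tested, and these, Fabp2 and Apob, differed by -2.28 and -1.91. The 5 below the filter did not share this direction. Apoa1 had 38.4 and 52.0 with imatinib, against 35.5 and 26.7 with vehicle, and Fabp1, Apoa4, Mttp and Anpep overlapped. Among 7 cycling genes tested, 2 were lower and 0 higher (median -0.30). The part of these cells in the members' differences was not tested.

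Other genes of the same pathways gave a mixed picture. Of 54 tested in 4 lists, 9 passed the test in either direction, where 15.5% of all genes did. The count was 4 without imatinib replicate 1, and 5 without vehicle replicate 1 or 2. None of 11 other sterol genes passed (limma; 2 higher and 0 lower at an unadjusted p under 0.05), with a median of 0.09. In the list of other oxidation genes, 2 of 16 were lower and 0 higher, with a median of -0.13. Over all genes tested, 8.73% were lower and 6.8% higher. Hadh, the hydroxyacyl-CoA dehydrogenase of short chains, had 3936 and 3783 with imatinib, against 8455 and 8283 with vehicle (-1.11 ± 0.07, limma adjusted p = 2.8e-06). Acads, the acyl-CoA dehydrogenase of short chains, had 562 and 582 with imatinib, against 864 and 757 with vehicle (-0.48 ± 0.12, adjusted p = 0.020), and missed the threshold with equal array medians (-0.29, adjusted p = 0.20). Neither gene's groups overlapped.

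Fatty acid synthesis and esterification had 4 lower and 1 higher of 16 other genes (median -0.02), beside 8.73% lower and 6.8% higher of all genes. Acss2, which makes acetyl-CoA from acetate, had 148 and 168 with imatinib, against 406 and 499 with vehicle (-1.35 ± 0.17, limma adjusted p = 0.00030). The elongase gene Elovl7 had 91.7 and 94.8 with imatinib, against 220.4 and 273 with vehicle (-1.15 ± 0.21, adjusted p = 0.0034). Elovl6, another elongase gene, had 179 and 182 with imatinib, against 281 and 315 with vehicle (-0.63 ± 0.17, adjusted p = 0.028), and missed the threshold with equal array medians (-0.46, adjusted p = 0.073) and with quantile normalization (-0.54, adjusted p = 0.060). Hsd17b12, a reductase of fatty acid elongation, rose 1.27-fold on the deposited scale (limma adjusted p = 0.018), but its log2 difference was -0.12 with equal macrophage markers. The uptake list had 2 higher and 0 lower of 11 (1 lower at an unadjusted p under 0.05, limma; median 0.12). Cd36, a receptor for fatty acids and oxidised lipoproteins, had 1230.4 and 1324 with imatinib, against 867 and 847 with vehicle (1.47-fold, limma adjusted p = 0.0033), and Lrp1, an endocytic receptor of lipoprotein remnants, rose 1.36-fold (adjusted p = 0.037). With equal macrophage markers the log2 differences were 0.09 for Cd36 and -0.03 for Lrp1. On the same arrays the macrophage markers differed by a median of 0.41 on the log2 scale, from -0.09 for C1qb to 1.16 for Mertk. The part of this in the Cd36 and Lrp1 differences was not tested.

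**Figure D4:**
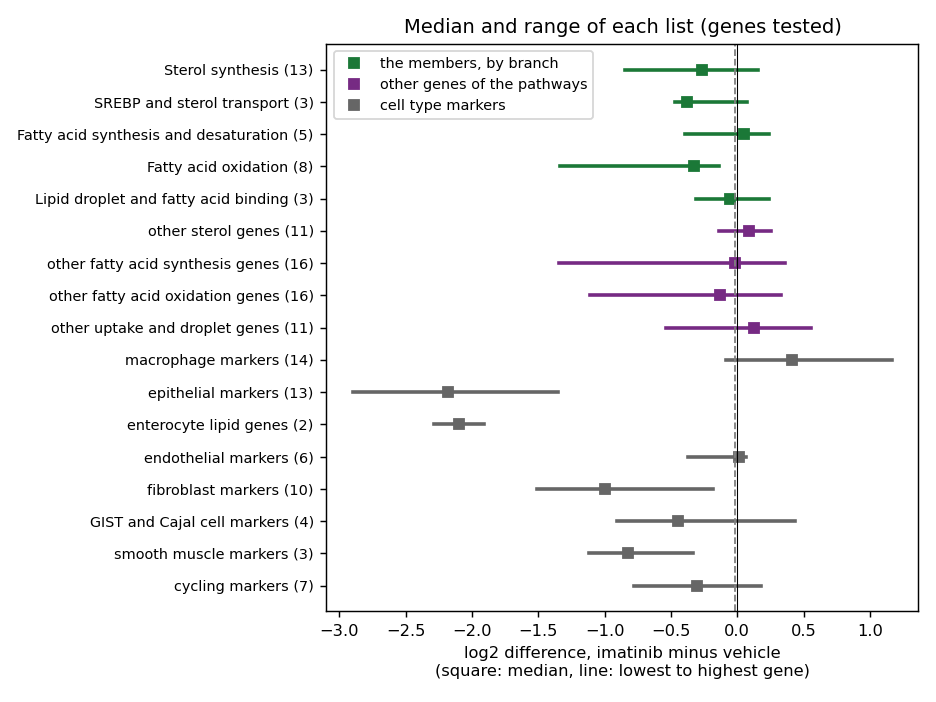
Median (square) and lowest to highest gene (line) of the log2 differences, imatinib minus vehicle, of the branches, the other genes of the pathways and the cell type markers, with the number of genes tested. The dashed line is the median of all genes tested (-0.02); the epithelial markers lie between -2.89 and -1.35, below every branch median.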

How the data were processed

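The deposited values were array intensities on a linear scale. Per the submitters' processing notes, the authors used Affymetrix Expression Console with its MAS5 algorithm, whose background subtraction leaves dim signals noisy and whose scaling ties genes together. The mean after 2% was trimmed from both ends was 500.3 on every array. Of 22690 probe sets, 64 were controls, 20380 had 1 gene symbol, 691 several and 1555 none, and 20351 matched RefSeq (GRCm38.p6) by Entrez ID, with 0 symbols updated.

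Signals were analysed as log2(signal + 32), so folds of dim genes are understated. Each gene's brightest probe set, by mean log2 value, was tested if that mean reached the 40th percentile of probe sets without controls. Groups were compared by limma (lmFit, eBayes with trend, two-sided, median prior degrees of freedom 8.71 and 2 residual) with Benjamini-Hochberg adjustment over 8145 genes at 0.05. The fit was tested on simulated data. Differences are imatinib minus vehicle. Probe sets of a gene were also fitted singly, over all probe sets past the filter. All members are given, and of other pathway genes up to 3 called in each direction per list are named. Epcam, Krt8, Cdh1 and the adipocyte markers and absorptive enterocyte genes were named after their values were seen. The members and lists were chosen with earlier results of these data known. Protein identities were not computed here. Samples sharing a replicate number deviated with a correlation of -0.13 across genes. Software was limma 3.58.1 and statmod 1.5.0 in R 4.3.3, with matplotlib 3.10.9, numpy 2.4.6 and pandas 2.3.3 in Python 3.11.15.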

Additional observations from a re-analysis of the deposited data

How the results depend on the processing

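The scale of the arrays mattered most. With equal array medians 3 members were lower and 3 higher, the branch medians were -0.14 for oxidation, 0.24 for fatty acid synthesis, 0.14 for droplets and binding, -0.18 for SREBP control and -0.10 for sterol synthesis, and Acadvl (0.0055), Dhcr7 (0.17), Hadha (0.037), Lss (0.0017) and Plin2 (0.14) changed sign. With equal macrophage marker means 26 members were lower and 38 other pathway genes passed, the same medians were -0.79, -0.42, -0.52, -0.85 and -0.74, and Acly (-0.23), Fabp5 (-0.23), Fads1 (-0.25), Nsdhl (-0.38), Pmvk (-0.31), Sc5d (-0.40), Scd1 (-0.42), Sqle (-0.46) and Srebf2 (-0.40) changed sign. These shifts follow from the scaling itself, which moved all genes. Quantile normalization gave a sterol median of -0.13 and Dhcr7 0.033, and the 60th percentile filter a sterol median of -0.017. When each gene's probe sets were averaged, the sterol median was -0.16, the synthesis median -0.10, Acly -0.10 and Srebf2 -0.19. Without probe sets that may hit several transcripts 3 members were lower, the SREBP median was -0.20 and the droplet median 0.16. Without the mean-variance trend 3 members were lower. The cause was not tested.

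With 1 array left out, the lone array is assumed to vary like the other group. The members lower then numbered 4 to 6, the members higher 0 to 1 and the other pathway genes 4 to 6, and the sterol median ran from -0.31 to -0.16. Log2 differences ran from -0.52 to 0.48 for Dhcr7, -0.76 to 0.079 for Fdps, -0.058 to 0.25 for Nsdhl, -0.14 to 0.035 for Plin2, -0.10 to 0.24 for Sc5d, -0.056 to 0.15 for Scd1, -0.13 to 0.14 for Sqle and -0.085 to 0.23 for Srebf2. Replicates shared only a number; with the replicate block 6 members were lower, 0 higher and 8 other pathway genes passed, Srebf1 missed the threshold (limma adjusted p = 0.050) and Cpt1a passed (adjusted p = 0.046). The crossed replicate block, chosen after seeing the data, gave 9 members lower and 1 higher. Members below the filter are limited by signal over background.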
